A study of Homo sapiens with 5 samples.

Results

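The genes described here are 10 members of the integrated stress response: the transcription factor ATF4 and 9 genes known as its targets or partners (ATF3, DDIT3, CEBPB, DDIT4, SESN2, TRIB3, CHAC1, ASNS and PSAT1), of 19775 genes with a probe set on the array. They were chosen by symbol, with earlier results of these data known, through all 16 probe sets that the platform's annotation assigns to these symbols. Shares over all genes given beside the members' counts are therefore descriptions and not independent tests. The samples are 5 Affymetrix expression arrays of 3 human renal cell carcinoma lines, and each array gives 1 signal per probe set on the log2 scale, so that a difference of 1 is a doubling. SN12C, the parental line, labelled non-metastatic, had 2 arrays, labelled biological replicates. LM1, labelled lung metastatic and of generation 1, had 1 array. LM2, labelled lung metastatic and of generation 2, had 2 arrays, also labelled biological replicates. No treatment or genotype is given for any line, and the lines were profiled to find expression that goes with rising metastatic activity. Each line stands for 1 lineage of cells, and the number of arrays limits the precision.

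In the integrated stress response, kinases that sense amino acid shortage, unfolded protein in the endoplasmic reticulum, viral RNA or lack of haem phosphorylate the translation factor eIF2. General protein synthesis slows, while the mRNA of ATF4 is translated better, so that ATF4 protein can rise without a change in its mRNA. ATF4 binds DNA as a dimer with proteins of the C/EBP family, at a composite site called the C/EBP-ATF response element, and turns on genes for amino acid supply and for growth arrest, feedback or cell death.

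This element is shown for the members whose promoter window holds its core, since it is the kind of site through which ATF4 is known to act. Whether ATF4 acts at the matches printed here was not tested. The core searched was TGATGNAA, on both strands, in windows from 250 bases before to 50 bases after each annotated start (RefSeq, build GRCh38.p14). All 10 members had a window, and 3 of the 10 held the core, against 4.46% of the 27305 genes with a window. Some genes have several windows. Counted by window, 3 of the members' 17 held the core, against 3.62% of all 35116. Stretches before the start are printed on the gene's strand, with the match in capitals. CHAC1 carries the core on the opposite strand, so that it reads as its reverse complement.
ASNS, chr7:97872429-97872516, minus strand: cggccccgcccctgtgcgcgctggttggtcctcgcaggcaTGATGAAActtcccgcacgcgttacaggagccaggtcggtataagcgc
CHAC1, chr15:40953222-40953309, plus strand: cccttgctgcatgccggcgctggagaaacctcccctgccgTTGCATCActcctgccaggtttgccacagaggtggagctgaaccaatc
ATF3, chr1:212565176-212565263, plus strand: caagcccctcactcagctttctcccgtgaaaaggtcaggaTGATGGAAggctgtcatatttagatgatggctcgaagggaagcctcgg
The match ends 61 bases before the start in ASNS, 202 in CHAC1 and 184 in ATF3. In ATF3 it lies before 1 of its annotated starts. The cAMP response element, TGACGTCA, which differs from the core so that no site can match both in full, was found in 0 of the 10 members and in 2.25% of genes. A match describes these letters only, and binding was not measured.

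The arrays did not resemble each other by line alone. Across the 15024 genes tested, the median distance between arrays of a line was 0.07 log2 units in LM2 and 0.28 in SN12C, while that of SN12C replicate 2 from the LM2 arrays was 0.12 to 0.13. SN12C replicate 1 and LM1 read the 5' end of 18S ribosomal RNA at 8.80 and 8.61, against 7.66 to 7.83 on the others. On the LM1 array the 3' probe set of beta-actin exceeded the 5' one by 3.43 log2 units, and by 0.07 to 0.47 on the other arrays. The renal factor PAX8 (9.19 to 9.82) and the keratins KRT8 (12.46 to 13.21) and KRT18 (14.04 to 14.72) were read on all arrays. EPCAM was below the filter for testing, 6.03, on all of them, and CDH16 on 4. That filter is the 40th percentile of all signals, and reaching it is not a detection call. The renal factors PAX2 (6.34 to 6.46) and LHX1 (6.06 to 6.08) lay just above that filter on all arrays. Of 17 markers of leukocytes, endothelium, lung epithelium and fibroblasts, PTPRC, LYZ, CDH5, SCGB1A1 and LUM were below that filter on every array, and the other 12 reached it on all 5. The mean signal of these 17 was 6.66 to 6.67 in SN12C, 6.76 in LM1 and 6.78 to 6.80 in LM2, but single markers moved more. The 4 fibroblast markers had a mean of 6.48 and 7.09 on the SN12C arrays, 7.46 on LM1 and 7.58 and 7.60 on the LM2 arrays. Of these, the collagen gene COL3A1 read 6.98 and 8.98 on SN12C, 10.04 on LM1 and 10.94 and 11.11 on LM2. SFTPB, a surfactant gene of lung epithelium, was highest on SN12C replicate 1, at 9.04, with 7.71 to 7.82 elsewhere. The part of these array differences in the results below was not tested.

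The first comparison sets LM2 against its parent. All 10 members had a lower mean in LM2 than in SN12C, with a median difference of -1.18 log2 units, beside 0.03 over all genes tested; 43.4% of all genes had a lower mean. None passed limma at an adjusted p of 0.05, a call that 0.00% of all genes passed (lowest adjusted p = 0.225 over all genes). At an unadjusted limma p under 0.05, 2 of the 10 were lower, ATF3 and CEBPB, beside 4.60% of all genes. LM2 was lower by at least 1 log2 unit for 7 of 10, beside 1.26% of genes. Both LM2 arrays lay below both SN12C arrays for 6 members, beside 14.1% of genes, and above both for 0, beside 25.3%. SN12C replicate 1 gave the highest signal of the 5 arrays for all 10, beside 23.3% of genes, so the size of most differences depends on which SN12C array is used, least so for ATF3. In bulk RNA, fewer cells that express a gene and less of its RNA per cell cannot be told apart.

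**Figure D1:**
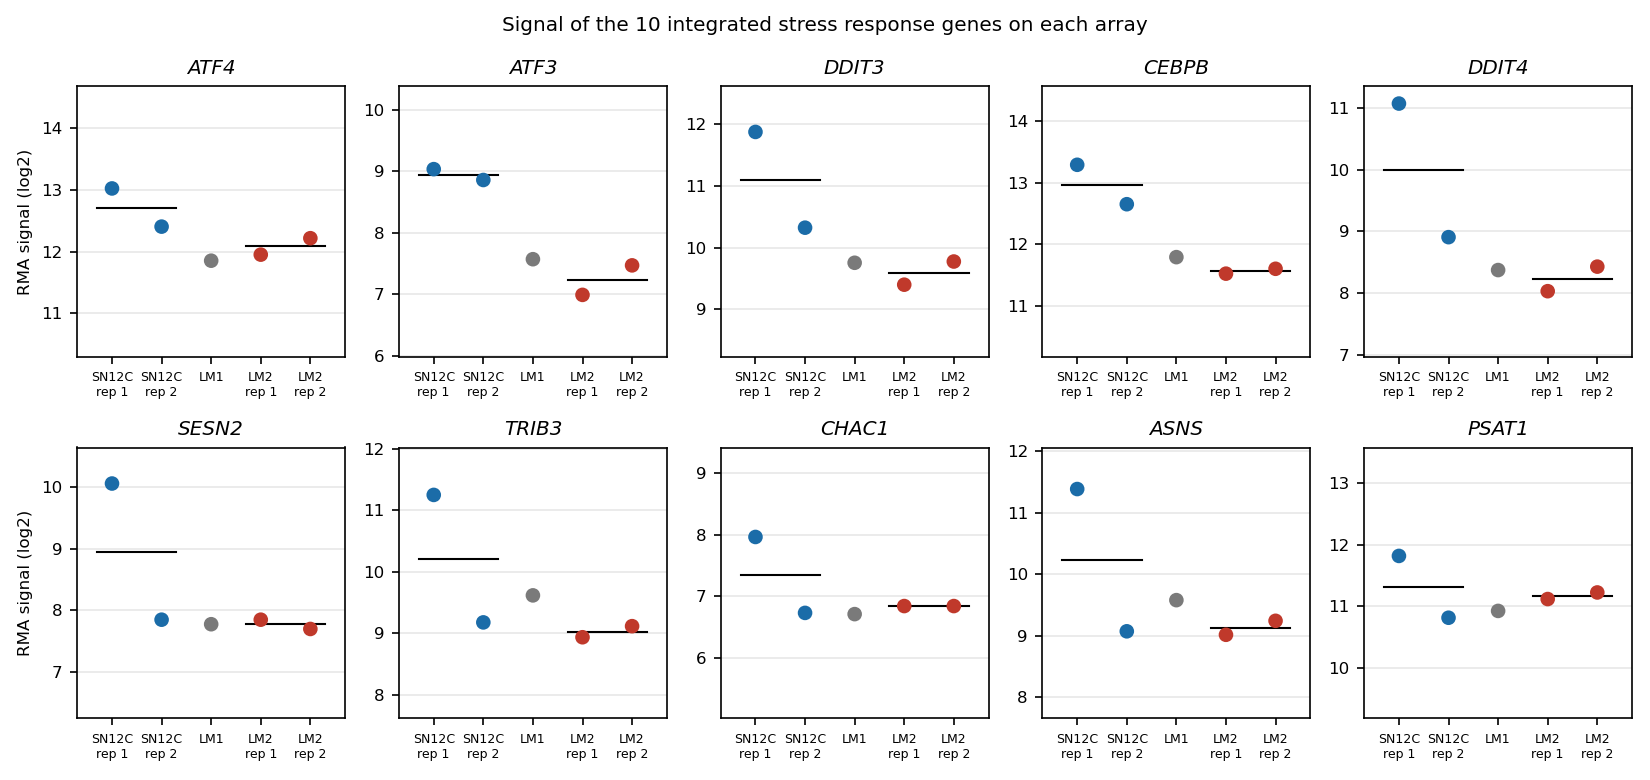
RMA signal (log2) of the probe set used for each of the 10 members, with 1 point per array (SN12C blue, LM1 grey, LM2 red) and a bar at the mean of each line with 2 arrays; every panel spans the same number of log2 units. SN12C replicate 1 is the highest point in every panel, and for ATF4, ATF3, DDIT3, CEBPB and DDIT4 both SN12C points lie above the other 3.

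Among the transcription factors, ATF4, the regulator itself, read 13.03 and 12.41 on the SN12C arrays, 11.85 on LM1 and 11.95 and 12.22 on the LM2 arrays. Both SN12C arrays were above the other 3, by little in replicate 2. The difference of LM2 from SN12C was -0.63 ± 0.27 (SE; limma adjusted p = 0.524).

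ATF3, a factor of the same leucine-zipper family that many stresses induce, read 9.03 and 8.86 on the SN12C arrays, 7.57 on LM1 and 6.99 and 7.47 on the LM2 arrays. The SN12C arrays lay close together, and all 3 arrays of the metastatic lines were below them. LM2 differed from SN12C by -1.71 ± 0.21 (limma adjusted p = 0.240), and the SN12C level was 3.28-fold that of LM2. This was the smallest difference between the SN12C arrays among the members, 0.18.

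CEBPB, a C/EBP protein that pairs with ATF4 and also drives inflammatory genes, read 13.29 and 12.65 on the SN12C arrays, 11.79 on LM1 and 11.52 and 11.60 on the LM2 arrays. The lines did not overlap, and the LM2 arrays were nearly equal. The difference of LM2 from SN12C was -1.41 ± 0.26 (limma adjusted p = 0.289), a level in SN12C 2.66-fold that of LM2.

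DDIT3, also called CHOP, a pro-apoptotic C/EBP relative, read 11.88 and 10.32 on the SN12C arrays, 9.75 on LM1 and 9.40 and 9.77 on the LM2 arrays. All 3 arrays of the metastatic lines were below both SN12C arrays, which themselves stood 1.56 apart. LM2 differed from SN12C by -1.52 ± 0.63 (limma adjusted p = 0.509).

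Among the effectors, DDIT4, also called REDD1, an inhibitor of the growth kinase complex mTORC1, read 11.08 and 8.91 on the SN12C arrays, 8.37 on LM1 and 8.03 and 8.43 on the LM2 arrays. Both SN12C arrays were higher than the rest, replicate 1 by far. The difference of LM2 from SN12C was -1.76 ± 0.86 (limma adjusted p = 0.572), and SN12C replicate 1 stood 4.50-fold above replicate 2.

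SESN2, sestrin 2, a leucine sensor that also restrains mTORC1, read 10.06 and 7.85 on the SN12C arrays, 7.77 on LM1 and 7.85 and 7.70 on the LM2 arrays. Replicate 1 of SN12C stood alone, and replicate 2 had the same deposited value as LM2 replicate 1. LM2 differed from SN12C by -1.18 ± 0.87 (limma adjusted p = 0.633).

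TRIB3, a pseudokinase that feeds back on ATF4 and DDIT3, read 11.25 and 9.18 on the SN12C arrays, 9.61 on LM1 and 8.93 and 9.11 on the LM2 arrays. The LM2 arrays were below both SN12C arrays, but only just below replicate 2, and LM1 lay between the SN12C arrays. LM2 differed from SN12C by -1.19 ± 0.81 (limma adjusted p = 0.631).

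CHAC1, an enzyme that degrades glutathione, read 7.97 and 6.73 on the SN12C arrays, 6.71 on LM1 and 6.84 on both LM2 arrays, which hold the same deposited value. Again SN12C replicate 1 stood alone, and the other 4 arrays lay together. The difference of LM2 from SN12C was -0.51 ± 0.49 (limma adjusted p = 0.662). The equal LM2 values shrink the spread estimated for this gene.

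The last pair are enzymes of amino acid synthesis. ASNS, asparagine synthetase, read 11.38 and 9.07 on the SN12C arrays, 9.58 on LM1 and 9.02 and 9.24 on the LM2 arrays. SN12C replicate 2 lay between the LM2 arrays, and replicate 1 was 4.96-fold above replicate 2, the widest gap among the members. LM2 differed from SN12C by -1.10 ± 0.91 (limma adjusted p = 0.639).

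PSAT1, which catalyses a step of serine synthesis, read 11.82 and 10.81 on the SN12C arrays, 10.92 on LM1 and 11.12 and 11.22 on the LM2 arrays. Both LM2 arrays lay between the SN12C arrays, so the lines overlapped. The difference of LM2 from SN12C was -0.14 ± 0.40 (limma adjusted p = 0.870).

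Set against each SN12C array in turn, the members differed widely among themselves. Against replicate 1, the LM2 mean was lower for all 10, with a median of -2.01, and by at least 1 log2 unit for 8 of 10, beside 1.80% of all genes. Against replicate 2 the median was -0.24, and 2 of 10 were lower by at least 1, beside 1.35% of genes. These were ATF3 at -1.63 and CEBPB at -1.09. DDIT3 at -0.74 and DDIT4 at -0.68 followed, so that 4 of 10 were lower by at least 0.5, beside 5.58% of genes.

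ATF4 stood at -0.32, TRIB3 at -0.15 and SESN2 at -0.08 against replicate 2. On the other side of 0 were ASNS at 0.06, CHAC1 at 0.11 and PSAT1 at 0.36. By role, the median against replicate 2 was -0.91 for the 4 transcription factors, -0.11 for the 4 effectors and 0.21 for the 2 synthesis enzymes, and against replicate 1 it was -1.77, -2.26 and -1.45. The roles were not tested against each other.

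**Figure D2:**
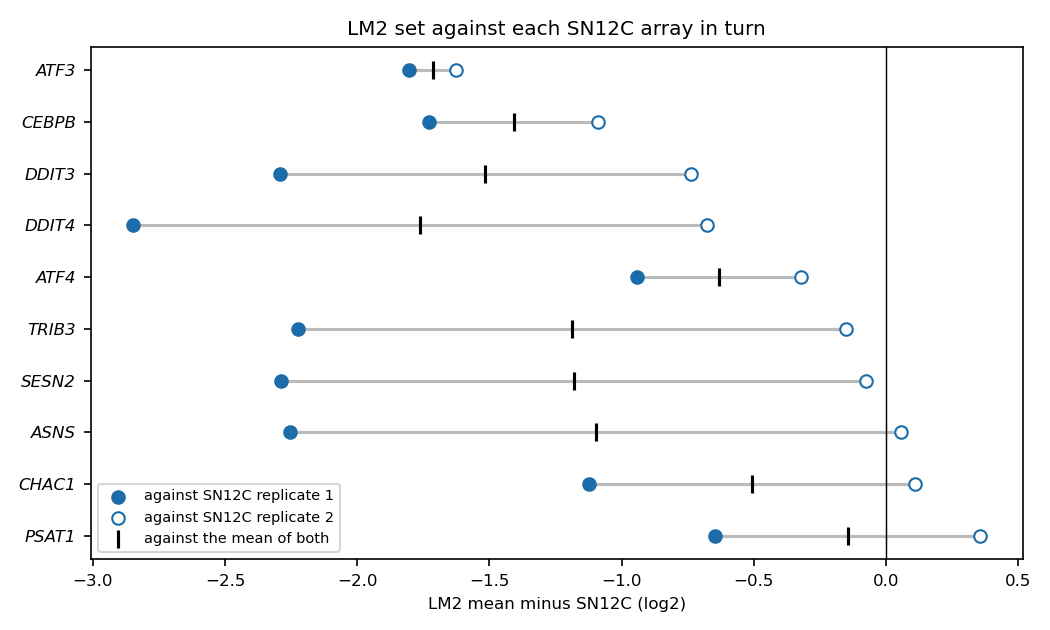
LM2 mean minus SN12C (log2) for each member, against SN12C replicate 1 (filled), replicate 2 (open) and their mean (bar), ordered by the difference from replicate 2. The filled points run from -2.85 (DDIT4) to -0.65 (PSAT1), and the open points from -1.63 (ATF3) to 0.36 (PSAT1).

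The gap between the SN12C arrays exceeded the difference of LM2 from SN12C for 7 of 10 members. The share of all genes for which this held was not counted, so it is not read as particular to the members. Replicate 1 exceeded replicate 2 by a median of 1.39 over the members, where all genes had a median of -0.09. For 7 of 10 members it did so by at least 1 log2 unit, beside 0.712% of genes: ASNS (2.31), SESN2 (2.21), DDIT4 (2.17), TRIB3 (2.07), DDIT3 (1.56), CHAC1 (1.23) and PSAT1 (1.00). The other 3 were CEBPB (0.64), ATF4 (0.62) and ATF3 (0.18), which are all transcription factors. This compares 2 arrays and has no replicate check. In a limma fit without SN12C replicate 1, ASNS, CHAC1 and PSAT1 turned to 0.06, 0.11 and 0.36. Without replicate 2, CEBPB stood at -1.73, SESN2 at -2.29, TRIB3 at -2.22 and CHAC1 at -1.12. In either fit the LM2 pair is the only source of spread, so the lone SN12C array is assumed to vary like it. For CHAC1 the LM2 values are equal, so that spread is 0. Calls from these fits are therefore not read as results.

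The second comparison sets LM1 against SN12C, and shares the SN12C arrays with the first. All 10 members were lower in LM1 than the SN12C mean, with a median of -1.02, beside 0.09 over all genes, of which 38.5% were lower. In limma none passed the adjusted threshold, which 0.00% of all genes passed, and 2 members had an unadjusted p under 0.05, beside 22.1% of genes. The largest differences were DDIT4 at -1.62, ATF3 at -1.38 ± 0.26 (limma adjusted p = 0.125), DDIT3 at -1.35 and CEBPB at -1.18 ± 0.32 (limma adjusted p = 0.181). For 7 of 10 the LM1 array lay below both SN12C arrays, beside 20.8% of genes.

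For 5 members, ATF4, ATF3, DDIT3, CEBPB and DDIT4, all 3 arrays of the metastatic lines lay below both SN12C arrays, beside 7.12% of genes. Against SN12C replicate 2 alone, LM1 differed by -1.29 for ATF3, -0.86 for CEBPB, -0.57 for DDIT3, -0.55 for ATF4 and -0.54 for DDIT4. It differed by -0.07 for SESN2, -0.02 for CHAC1, 0.11 for PSAT1, 0.44 for TRIB3 and 0.51 for ASNS. The members' median was -0.30 against replicate 2 and -1.57 against replicate 1, beside 0.07 and 0.14 over all genes. LM1 has 1 array, so its spread is assumed to be that of the other lines.

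The third comparison sets the generations against each other. The median of LM2 minus LM1 was -0.16, beside -0.07 over all genes. Both LM2 arrays were below LM1 for 4 members, beside 51.9% of genes, and above it for 3, beside 27.0% of genes. None passed limma, adjusted (0.00% of genes) or at an unadjusted p under 0.05 (17.0% of genes). On the probe sets used, the differences ran from -0.59 for TRIB3 to 0.25 for PSAT1, each smaller than its standard error except that of ATF3 at -0.34 ± 0.26. Further probe sets that passed the filter gave 1.22 for TRIB3, 0.38 for ATF3 and 2.55 for PSAT1, and -0.24 for SESN2. LM1 is the array with the 3' excess of beta-actin given above, whose part was not tested.

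Of the members, 5 were read by more than 1 probe set, and 14 of the 16 probe sets passed the filter. Signals of different probe sets are not comparable in level, so only their changes between arrays are set side by side. SESN2 repeated its pattern on its second probe set, at 9.34 and 7.55 on the SN12C arrays, 7.66 on LM1 and 7.37 and 7.47 on LM2. The second probe set of TRIB3 read 9.06 and 7.76 on SN12C, 6.57 on LM1 and 7.76 and 7.82 on LM2. It again set SN12C replicate 1 apart, and it put LM1 lowest, where the first probe set put LM1 above replicate 2.

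A second probe set of ATF3 read 8.22 and 8.33 on SN12C, 7.36 on LM1 and 7.70 and 7.77 on LM2, so the lines were again apart, by -0.54, less than the -1.71 of the first. Another, at 5.83 to 5.97, was below the filter on every array, as was a second for ASNS at 3.97 to 4.13. The second probe set of PSAT1 read 10.81 and 10.53 on SN12C, 8.32 on LM1 and 10.83 and 10.92 on LM2. Both LM2 arrays were above SN12C there and LM1 was far below, while the first probe set showed no such drop. The LM1 array, low on these further probe sets of PSAT1, TRIB3 and ATF3, is the one with the 3' excess of beta-actin given above, whose part was not tested. The probe sets used for ATF3, DDIT4, SESN2, ASNS and PSAT1 end in _s_at, a design shared by several transcripts.

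**Figure D3:**
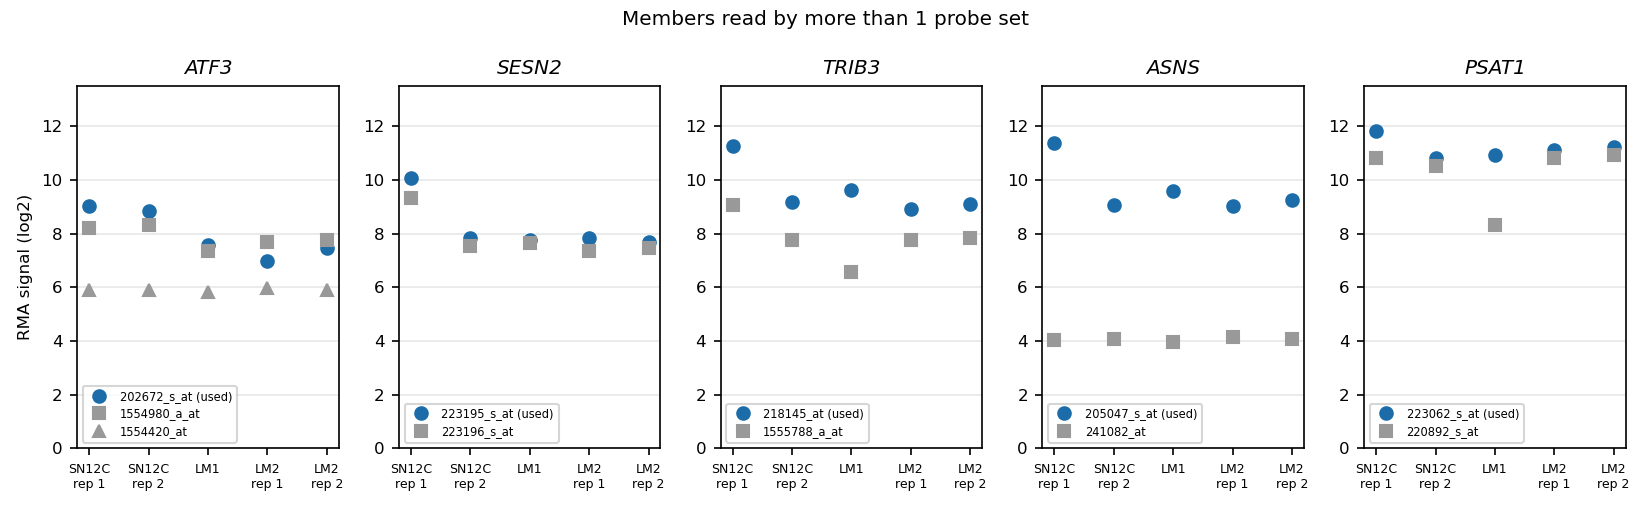
RMA signal (log2) on each array for the 5 members with more than 1 probe set; blue circles are the probe set used and grey symbols the others. SESN2 repeats its pattern on both, while for PSAT1 the second probe set drops to 8.32 on LM1 and the first reads 10.92.

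The wider pathway was read through 6 lists of 68 genes, of which 63 were tested. None passed limma adjusted for all genes, and 6 were lower and 3 higher in LM2 at an unadjusted p under 0.05, beside 4.60% and 6.96% of all genes. In these lists 43 of 63 had a lower mean in LM2, beside 43.4% of all genes, with a median of -0.11. Their median was -0.14 against SN12C replicate 1 and -0.03 against replicate 2, both smaller in size than those of the members. SN12C replicate 1 was highest of the 5 arrays for 32 of 63, beside 23.3% of all genes.

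Upstream, the 16 genes for eIF2 kinases, their regulators GCN1 and IMPACT, eIF2, its exchange factor eIF2B and its phosphatase had a median of -0.04. EIF2B2, a subunit of eIF2B, differed by 0.58 ± 0.23 (limma adjusted p = 0.496), and EIF2S1, the eIF2 subunit that the kinases phosphorylate, by 0.51 ± 0.25. PPP1R15A, or GADD34, the stress-induced subunit that dephosphorylates eIF2, is named here after its values were seen. It read 10.21 and 8.74 on the SN12C arrays, 9.27 on LM1 and 9.21 and 9.06 on the LM2 arrays. SN12C replicate 1 was highest, and replicate 2 lowest.

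Of 7 other leucine-zipper partners and cofactors, with a median of -0.16, NFIL3, a repressor, differed by -1.07 ± 0.22 (limma adjusted p = 0.306) and CEBPD, a C/EBP protein, by -1.02 ± 0.15 (limma adjusted p = 0.252). CEBPD read 10.15 and 10.47 on SN12C, 9.53 on LM1 and 9.24 and 9.33 on LM2. Like NFIL3 and 5 of the 10 members, it was higher on both SN12C arrays than on the other 3, as were 7.12% of all genes. JDP2, an AP-1 repressor, is named after its values were seen: it stood 0.71 higher in LM2.

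In the metabolic and effector lists the median was 0.08 for 8 genes of serine, one-carbon and amino acid synthesis, where MTHFD2, a mitochondrial folate enzyme, differed by -0.59 ± 0.21 and CBS, which makes cystathionine, by 0.47 ± 0.37. It was -0.19 for 7 amino acid transporters, where SLC7A11, the cystine transporter, differed by -0.89 ± 0.55 and SLC7A5, which carries large neutral amino acids, by -0.49 ± 0.16. For 12 genes of tRNA charging and export it was -0.08, with YARS1 at -0.97 ± 0.36 and GARS1 at -0.42 ± 0.40, both tRNA synthetases. For 13 further stress effectors it was -0.20, with SQSTM1, an autophagy receptor, at -0.86 ± 0.17 and GDF15, a stress-induced cytokine, at -0.75 ± 0.57. None of these passed limma (adjusted p from 0.292 for SQSTM1 to 0.662 for GARS1). Several of these differences rest on 1 SN12C array. Against replicate 1 and replicate 2, GARS1 stood at -0.92 and 0.09, GDF15 at -1.47 and -0.02, SLC7A11 at -1.58 and -0.20, and CBS at 0.00 and 0.93. SQSTM1 stood at -1.05 and -0.67, MTHFD2 at -0.83 and -0.36, SLC7A5 at -0.62 and -0.37, and YARS1 at -1.42 and -0.52.

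Genes of the endoplasmic reticulum chaperone system, which ATF6 and XBP1 are known to control, are set beside the members because both responses can follow unfolded protein. Their median in LM2 was 0.19 higher than in SN12C, and 0.21 and 0.20 against SN12C replicate 1 and replicate 2. Of the 10, 1 had a lower mean, beside 43.4% of all genes. SN12C replicate 1 was highest for 1, beside 23.3% of all genes, where it was highest for all 10 members. SDF2L1 differed by 0.84 ± 0.44 (limma adjusted p = 0.597), by 1.40 from replicate 1 and 0.27 from replicate 2, and SEL1L, of the degradation machinery, by 0.60 ± 0.07 (limma adjusted p = 0.235). The difference between the lists was not tested.

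**Figure D4:**
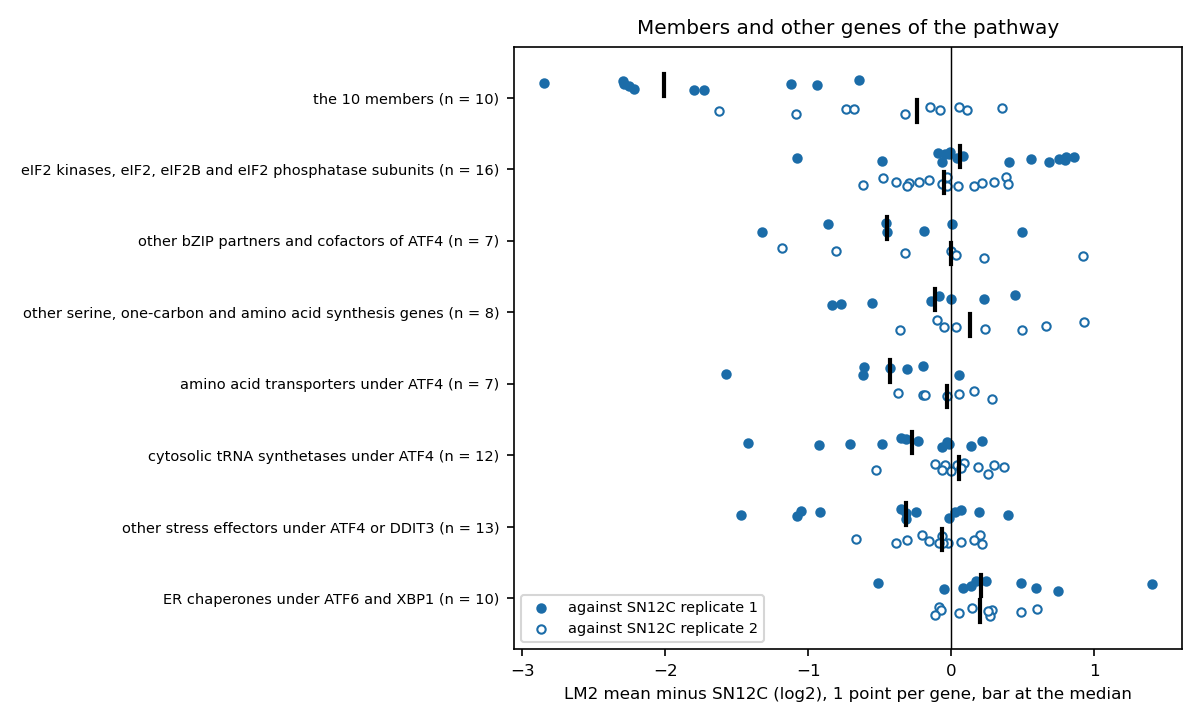
LM2 mean minus SN12C (log2), 1 point per gene, for the 10 members, the 6 other lists of the pathway and the chaperones, against SN12C replicate 1 (filled) and replicate 2 (open), with a bar at each median. The members' median is -2.01 against replicate 1 and -0.24 against replicate 2, and the chaperones' is 0.21 and 0.20.

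Over the 5 arrays, the genes nearest to the members' median profile, each gene centred on its own mean, were CCNG2, CLEC1A, TNFAIP3, CDK15 and CFB, at root mean square differences of 0.16 to 0.21 log2 units among 15014 other genes. CCNG2, cyclin G2, read 9.77 and 8.47 on SN12C, 8.43 on LM1 and 7.89 and 8.20 on LM2. TNFAIP3, an inhibitor of NF-kappaB signalling, read 9.38 and 7.64 on SN12C, 7.44 on LM1 and 6.88 and 7.17 on LM2. Among the members, DDIT3 was nearest to that profile at 0.19, and ATF3 farthest at 0.51.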

How the data were processed

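Each probe set has a single log2 signal on each array, as the authors deposited it. The submitters' processing notes name RMA and Partek; versions are not given in the sources used here. RMA quantile normalizes arrays, and no value was transformed again. The deposited values still differed in spread, with an SD of 2.11 on SN12C replicate 1 and 2.22 to 2.25 on the others. A further quantile normalization gave a members' median of -1.33 for LM2 against SN12C, beside -1.18 without it. The array held 54675 probe sets. The 62 controls entered no test, and 1801 probe sets assigned to several genes were not used, none of them a member's. A gene was read through its brightest probe set (mean over all arrays), with symbols from RefSeq GRCh38.p14 through gene identifiers. Genes entered the test if the signal was at or above 6.03, the 40th percentile of the table, on 2 arrays or more. All 10 members passed.

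One mean per line was fitted over all 5 arrays with limma 3.58.1 in R 4.3.3, with 2 residual and 1.3 prior degrees of freedom and Benjamini-Hochberg adjustment over all 15024 genes; further probe sets are given as values. Errors given as ± are moderated standard errors. The labels do not say whether replicates were separate cultures: p-values cover only the spread between these arrays, which may be technical. With 2 arrays against 2, the smallest two-sided p of an exact permutation test is 0.333. Equal deposited values in a replicate pair, found for 2674 genes tested, shrink their spread.

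Tested on simulated data (15024 genes, LM2 against SN12C), limma recovered 44.8% of changes of 1 log2 unit, 77.6% of changes of 2 and 100% of changes of 4. There were 3 false calls. Simulated arrays had equal spread and no ties. The spread of each gene was its moderated estimate, already drawn toward a common value. The rates are therefore not the power of limma on the deposited arrays, where 0 of 15024 genes were called. The changed genes were drawn from all genes, so these rates do not describe members with a wide spread, such as ASNS (SE 0.91).

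The members and lists were chosen with earlier results of these data known. Genes named beside the members were the 2 of each list with the largest LM2 difference and the 5 nearest in profile; others are said to be chosen later. Alternatives covered the filter, probe set rule, normalization, variance model, arrays fitted, leaving out replicates in turn and blocking on the replicate number; a fit over all probe sets and one without tied genes were added after seeing the data. Figures were drawn with matplotlib 3.10.9.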

Additional observations from a re-analysis of the deposited data

Results flagged for a closer look

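On the second probe set of PSAT1, LM1 and LM2 lay on opposite sides of the SN12C arrays, LM2 only slightly. It stood 0.21 above the SN12C mean in LM2 and -2.34 from it in LM1, with both LM2 arrays above and the LM1 array below both SN12C arrays. The LM2 difference did not pass limma (adjusted p = 0.734 over all probe sets), and LM2 replicate 1, at 10.83, was close to SN12C replicate 1, at 10.81. The LM1 array is the one on which the 3' probe set of beta-actin exceeded the 5' one by 3.43 log2 units, whose part was not tested. This opposition was not tested beyond the limma contrast of LM2 with LM1, where that probe set had an adjusted p of 0.110 over the same probe sets.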

How the results depend on the processing

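For LM2 against SN12C, 0 members and 0 genes were called in limma (2 and 1737 at an unadjusted p under 0.05). Leaving out each replicate gave 0 to 4 members and 0 to 3824 genes called, with 4 and 3824 without SN12C replicate 2, and a members' median from -2.01 to -0.24. With genes holding tied values left out, 2 genes were called, neither a member. For LM1 against SN12C the replicates left out gave 0 to 3 members, 0 to 4823 genes and a median from -1.57 to -0.30; without SN12C replicate 1 there were 1979 genes called, and without replicate 2 there were 4823 and 3 members. For LM2 against LM1, 0 to 1273 genes and 0 members were called, 1273 without either SN12C array. Where an SN12C array is left out, the spread comes from the LM2 pair alone. The other alternatives kept 0 genes and 0 members called.

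Of 174 differences of single members under the alternatives, 165 kept their direction and side of the threshold. PSAT1 turned to 0.21 with the most variable probe set, to 0.030 with the mean over probe sets and to 0.36 without SN12C replicate 1, where ASNS turned to 0.057 and CHAC1 to 0.11. Without SN12C replicate 2, ASNS stood at -2.25, CHAC1 at -1.12 and PSAT1 at -0.65. The rest of the changes were calls gained in that fit, where the spread comes from the LM2 pair alone. Labels do not say that equal numbers mark a shared culture or day, and deviations of same-numbered arrays correlated at 0.09 across genes; with the replicate block 0 members and 0 genes were called, 2 and 1395 at an unadjusted p under 0.05.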
